A study of Mus musculus with 11 samples.

Results

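Elastases are serine proteases that cut elastin, the rubber-like protein of the alveolar wall, and each is held in check by inhibitors. The genes described here are 3 serine elastase genes, Cela1, Elane and Prtn3, and 2 inhibitor genes, Slpi and Serpinb1a. They were taken by symbol from a table of read counts for 24411 gene symbols. They were chosen by name and known role, with the differences in read counts between PNX and sham libraries in view. All 5 were in the table, and 4 passed the filter on low counts that left 16011 genes for testing. Elane, with 21 counts in all, did not pass. The differences of these genes after surgery are therefore a description of where they stand among all genes tested, and not independent evidence.

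The counts came from bulk RNA sequencing of lung mesenchymal cells of C57BL6 mice. The cells had been sorted to lack EpCAM, CD45 and CD31, the surface proteins of epithelial, white blood and endothelial cells. The mice had undergone pneumonectomy (PNX), the removal of part of the lung, or sham surgery, and cells were taken at day 7 or day 14. There were 3 PNX libraries and 3 sham libraries at day 7, and 3 PNX libraries and 2 sham libraries at day 14. The labels do not say whether libraries of a group came from separate animals, so a p-value reflects only how far these libraries vary, some of which may be technical. Nor do they state age, the amount of lung removed or the number of animals behind a library.

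Total counts ran between 2963341 and 7614122 in PNX libraries and between 4082935 and 8362119 in sham libraries at day 7, and between 4733716 and 7895688 in PNX libraries and between 2539628 and 9008592 in sham libraries at day 14. Counts on 1455 olfactory and vomeronasal receptor genes, which lung cells are not known to use, made up 89.9 to 1606 CPM (the counts-per-million measure) of a library's total and served as a measure of background. It was highest in replicate 2 of both day 7 groups and in replicate 1 of sham day 14. Summed levels of 21 mesenchymal markers were 24243 to 31668 CPM, here and below scaled by TMM factors, in PNX libraries and 26259 to 44723 in sham libraries at day 7, and 27578 to 37168 in PNX libraries and 21529 to 29099 in sham libraries at day 14. Markers of cells that the sort should remove were also present, and their levels are given below beside the results.

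Cela1 encodes a chymotrypsin-like elastase. In mice it is best known as a digestive enzyme that acinar cells of the pancreas secrete as an inactive precursor, and it has also been studied in lung regrowth after tissue removal. Elane (neutrophil elastase) and Prtn3 (proteinase 3) are made by neutrophil precursors, stored in granules, and encoded side by side in the genome. Slpi encodes a small secreted inhibitor of neutrophil elastase and cathepsin G that is abundant in airway fluid. Serpinb1a encodes an intracellular serpin, a suicide-type inhibitor of neutrophil elastase, cathepsin G and proteinase 3.

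In mm10, with gene models of GENCODE M21, Cela1 lies at chr15:100674421-100687921 on the minus strand and overlaps no other annotated gene. Prtn3 lies at chr10:79874476-79883174 and Elane at chr10:79886247-79888215, both on the plus strand and 3073 bases apart. An exon of Prtn3 overlaps an exon of Plppr3 on the opposite strand, so without a stated strand setting some reads could belong to either gene. Slpi lies at chr2:164354070-164389095 on the minus strand and contains a microRNA gene, Mir7678, on the same strand. Serpinb1a lies at chr13:32842092-32851185 on the minus strand. It has close relatives, Serpinb1b and Serpinb1c, which held 30 and 28 counts in all 11 libraries, and reads that fit several of them could have been split.

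The sequence just before the start of Cela1 is shown because, of the members, Cela1 had the largest log2 fold change after surgery. It is the RefSeq sequence of GRCm38.p6 for the 250 bases before the start, chr15:100687921-100688170, minus strand, written 5′ to 3′. Capitals mark an E-box joined to a pyrimidine-rich box, and a TATA box.
Cela1: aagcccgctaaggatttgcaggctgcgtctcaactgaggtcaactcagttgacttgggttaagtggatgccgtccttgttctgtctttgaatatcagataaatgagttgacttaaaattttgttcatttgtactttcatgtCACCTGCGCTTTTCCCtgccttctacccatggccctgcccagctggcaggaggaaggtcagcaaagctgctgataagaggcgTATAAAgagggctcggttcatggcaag
In pancreatic acinar cells of the rat, the transcription factor complex PTF1 is known to bind the elastase gene through such an E-box and pyrimidine-rich box. In the mouse sequence the letters CACCTG began 109 bases before the start, and the whole stretch ended 94 bases before it. The TATA box, TATAAA, lay 27 to 22 bases before the start. On either strand, CACCTG alone was found in 17.2% of 32851 promoters of the same length, TTTCCC alone in 21.9%, and TATAAA in 12.4%. The pair was searched as CACCTG and then, after 3 further bases, TTTTCCC, which is the single box with a further T. Its spacing was chosen after this promoter was read, so a match in Cela1 was given in advance. It was found in 1 of the 32851, that of Cela1, which does not tell how rare such sites are. Of the other members with a promoter in the table (Elane, Prtn3 and Slpi), Slpi had CACCTG, on the opposite strand, 45 to 40 bases before its start. Starts here are those of RefSeq. The stretches used for Slpi (chr2:164356508-164356757) and Prtn3 (chr10:79879417-79879666) lie inside the GENCODE gene limits given above. TGACTCA, an AP-1 motif, was in 4.46% of promoters and in none of these 4. A match of letters is a description of the sequence and not evidence of binding in these cells.

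Cela1 was higher after PNX than after sham surgery on both days, and in the mean of both days it rose past the threshold. At day 7 it had 3.06, 4.15 and 18.5 CPM in the 3 PNX libraries, against 2.25, 0.644 and 1.59 CPM in the 3 sham libraries. At day 14 it had 9.51, 22.3 and 24.5 CPM in the 3 PNX libraries, against 1.01 and 0.610 CPM in the 2 sham libraries. Every PNX library lay above every sham library of its day. Genes with all PNX libraries above all sham libraries made up 9.95% of those tested at day 7, 9.57% at day 14 and 1.12% on both days.

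The sham levels of Cela1 were close to the limit of detection. At day 7 there were 18, 15 and 144 counts in PNX libraries, against 16, 3 and 11 in sham libraries. At day 14 there were 51, 142 and 109 counts in PNX libraries, against 3 and 5 in sham libraries. Set against the background, at most 1.31% of olfactory and vomeronasal genes had as many counts as Cela1 or more in any PNX library. The share was 39.7% in sham day 14 replicate 1, 24.0% in sham day 7 replicate 2 and at most 1.10% in the other sham libraries. In these sham libraries of highest background, then, the few counts of Cela1 could not be told from background. The exact 95% Poisson interval, which covers counting error only, was 7.08 to 12.5 CPM in PNX day 14 replicate 1, the lowest of its group, against 0.208 to 2.95 CPM in sham day 14 replicate 1, the higher of the sham libraries of that day.

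Group means were 8.57 ± 8.62 CPM after PNX and 1.496 ± 0.807 CPM after sham at day 7 (SD, n = 3 each), a ratio of 5.73. They were 18.8 ± 8.09 CPM after PNX (n = 3) and 0.809 ± 0.281 CPM after sham (n = 2) at day 14, a ratio of 23.2. In the fit across all genes, made with edgeR's quasi-likelihood test and Benjamini-Hochberg adjustment, the log2 fold change was 2.49 ± 0.67 at day 7 (SE, adjusted p = 0.120) and 4.60 ± 0.91 at day 14 (adjusted p = 0.0808). For the mean of both days it was 3.54 ± 0.57 (adjusted p = 0.0105). The 2 single-day differences did not pass the threshold of 0.05, and the mean of both days did.

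That made Cela1 the 1 member of 4 tested that was called in the mean of both days, where 0.137% of all genes tested were called higher and 0.0562% lower. Among the 31 genes called, Cela1 ranked 3 by log2 fold change and 10 by p-value. With edgeR no member was called at day 7, where 0.0375% of genes were called higher, or at day 14, where 0.00625% were. At an unadjusted p under 0.05 there were 3 members at day 7 (Cela1, Slpi and Serpinb1a; 12.7% of all genes), 1 at day 14 (Cela1; 6.81%) and 2 in the mean of both days (Cela1 and Serpinb1a; 10.3%). DESeq2 called Cela1 on each day (adjusted p = 0.0210 at day 7 and 0.000319 at day 14), and limma voom called no member on either day. Over all genes tested, DESeq2 called 0.824% higher and 2.03% lower at day 7, 0.406% higher and 0.275% lower at day 14, and 0.806% higher and 1.09% lower in the mean of both days. Limma voom called 1.56% higher and 3.6% lower at day 7, none at day 14, and 0.0312% higher and 0.0125% lower in the mean of both days.

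The call in the mean of both days was lost with limma voom and sample weights (log2 fold change 2.86 ± 1.04, adjusted p = 0.523). It was also lost without PNX day 14 replicate 2 (3.46 ± 0.61, adjusted p = 0.0612) and without sham day 14 replicate 2 (3.40 ± 0.75, adjusted p = 0.101). At day 7, 1 library carried much of the difference: without PNX day 7 replicate 3 the log2 fold change was 1.17 ± 0.63 (adjusted p = 0.521).

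**Figure D1:**
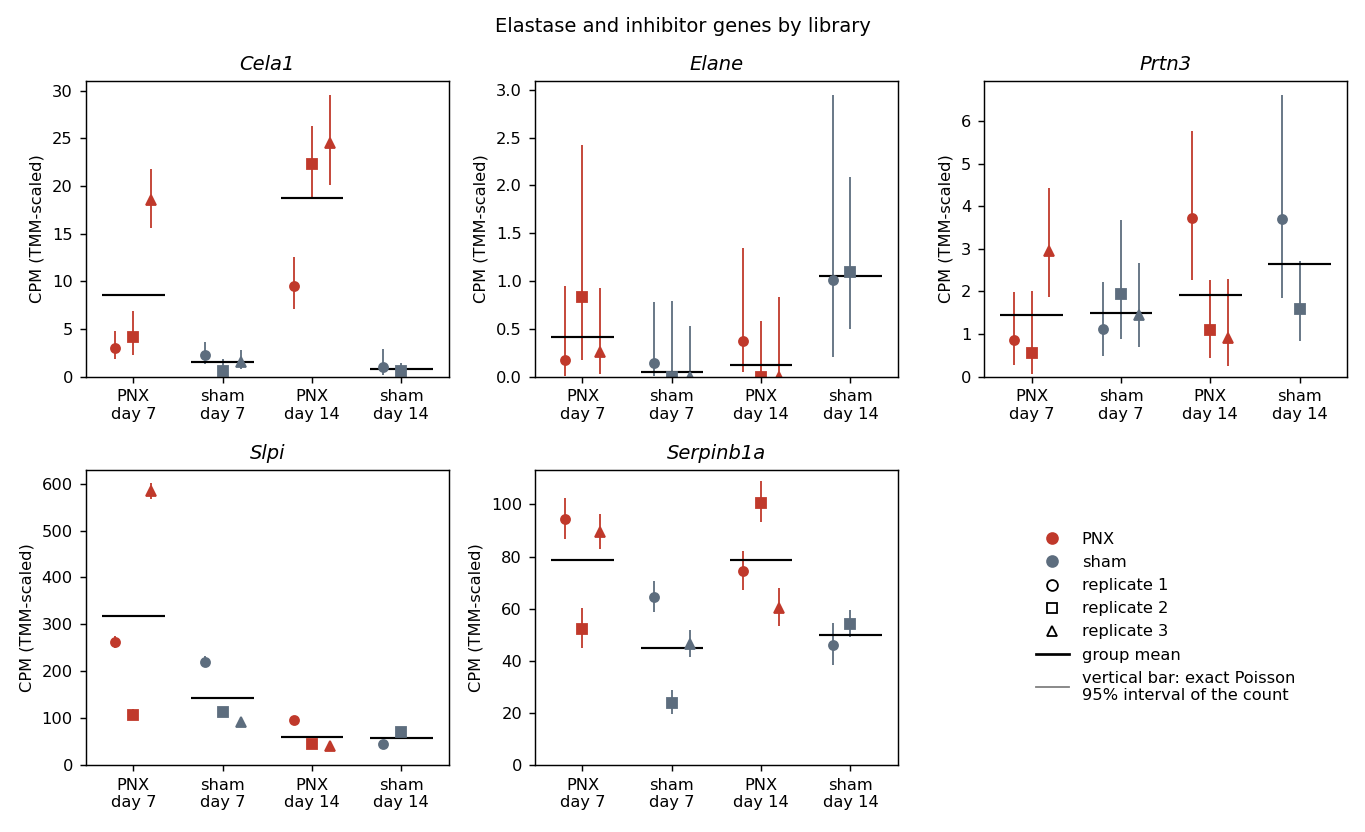
Level of each gene (y axis, CPM scaled by TMM factors, a separate scale per gene) in the 11 libraries, by surgery and day. Points are libraries, horizontal lines group means and vertical bars exact 95% Poisson intervals of the count. All PNX points of Cela1 lie above all sham points of the same day, between 3.06 and 24.5 CPM against 0.610 to 2.25 CPM.

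**Figure D2:**
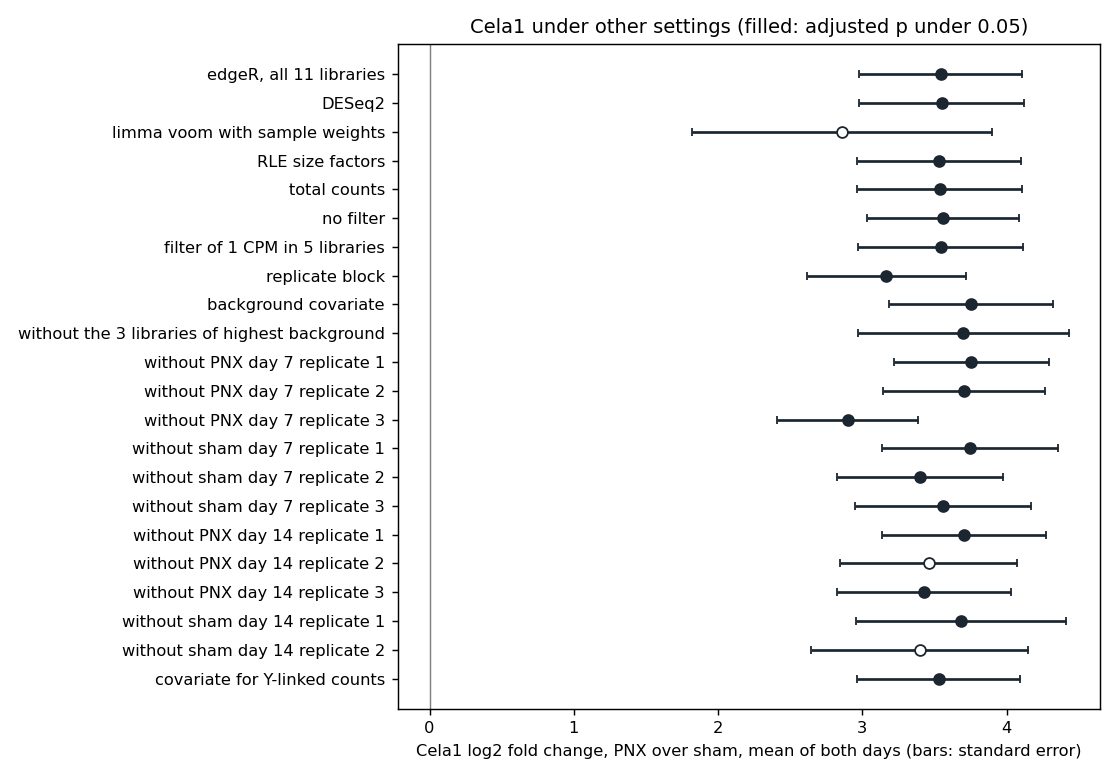
Log2 fold change of Cela1, PNX over sham in the mean of both days (x axis, bars are standard errors), under each way of processing the counts (rows). All values lie between 2.86 and 3.76, and open points mark the 3 settings in which the adjusted p was 0.05 or above.

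After PNX, Cela1 averaged 18.8 CPM at day 14 and 8.57 CPM at day 7, but the libraries overlapped because PNX day 7 replicate 3, at 18.5 CPM, was close to the day 14 level. The log2 fold change of day 14 over day 7 was 1.10 ± 0.60 after PNX (adjusted p = 0.754) and -1.01 ± 0.91 after sham (adjusted p = 0.667). The difference between days in the PNX effect, 2.11 ± 1.09 on the log2 scale, did not pass (adjusted p = 0.600). So the larger ratio at day 14 was not shown to differ from that at day 7. Without PNX day 7 replicate 3, the log2 fold change of day 14 over day 7 after PNX was 2.41 and the difference between days was 3.47. Leaving out each library in turn gave 0.71 to 2.41 and 1.72 to 3.47, with adjusted p of at least 0.484 and 0.298. Under the other settings the lowest adjusted p was 0.0580 for day 14 over day 7 after PNX and 0.568 for the difference between days. For day 14 over day 7 after PNX, limma voom gave Cela1 an unadjusted p under 0.05, as it did 2770 of 16011 genes.

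Libraries with and without Y-linked reads were mixed within every group but PNX day 7, where every library had such reads. The PNX libraries of day 14 and day 7 thus differed in this as well as in day. PNX day 14 replicates 2 and 3, sham day 7 replicate 3 and sham day 14 replicate 1 had 0 counts on 4 Y-linked genes, whereas the other 7 libraries had 1026 to 3903. The labels do not give sex. The PNX day 14 libraries without such counts had 22.3 and 24.5 CPM of Cela1, and the one with them had 9.51 CPM. With a covariate for these counts, added after seeing the data, the log2 fold change of Cela1 in the mean of both days was 3.53 ± 0.56 (edgeR, adjusted p = 0.0122), and that of day 14 over day 7 after PNX was 0.50 ± 0.78 (adjusted p = 0.939).

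In bulk RNA, a change in the number of cells that make a transcript and a change in transcript per cell cannot be told apart, and this holds for every gene here. Most other pancreatic enzyme genes were close to undetected. Of 15 further genes of the list (other elastases, trypsinogens, chymotrypsinogens, carboxypeptidases, lipase and amylase), Cpb1, a carboxypeptidase gene, held 511 of 611 counts in all 11 libraries. Its log2 fold change was -0.28 ± 0.37 in the mean of both days (edgeR, adjusted p = 0.904). Each of the other 14 had between 1 and 16 counts over all 11 libraries. The genes next to Cela1 were not called either: the log2 fold change in the mean of both days was -1.76 ± 0.54 for Bin2, 4868 bases away (adjusted p = 0.212), and -0.07 ± 0.51 for Galnt6, 3892 bases away (adjusted p = 0.994).

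Alveolar epithelial cells are among those that the sort should remove. The summed level of 23 of their markers was 1070 to 2755 CPM in PNX libraries and 348 to 13764 CPM in sham libraries at day 7, and 8343 to 18722 CPM in PNX libraries and 2889 to 12754 CPM in sham libraries at day 14. Replicate 3, which had the most Cela1 of the PNX libraries on either day, had the lowest alveolar sum of its group on both days. At day 14, though, the 95% Poisson intervals of Cela1 overlapped in PNX replicates 2 and 3 (18.8 to 26.3 and 20.1 to 29.6 CPM). Replicate 2 had the highest alveolar sum of that group, 18722 CPM. Of the 23 markers, 8 were higher and 15 lower after PNX at day 7, and 13 were higher and 10 lower at day 14. In the mean of both days 8 were higher and 15 lower (median log2 fold change -0.30, against -0.04 over all genes). There 1 of them, the keratin gene Krt18, was called higher (log2 fold change 1.57 ± 0.26, edgeR adjusted p = 0.0137), and none was called lower. None of the 23 was at 0 in every library. For mesothelial cells, which line the lung surface, 12 markers listed after values had been seen summed to 1395 to 4237 CPM in PNX libraries and 1119 to 4831 CPM in sham libraries at day 7, and to 2883 to 3633 CPM in PNX libraries and 959 to 2679 CPM in sham libraries at day 14. PNX replicate 3 had the highest mesothelial sum of its group on both days: 4237 CPM at day 7, where replicates 1 and 2 had 2714 and 1395, and 3633 CPM at day 14, where they had 3038 and 2883. Sham day 7 replicates 1 and 3 had mesothelial sums of 4096 and 4831 CPM, with 2.25 and 1.59 CPM of Cela1. Of the 12 mesothelial markers, 5 were higher and 7 lower after PNX at day 7 (median log2 fold change -0.05, against 0.03 over all genes). At day 14 all 12 were higher (median 0.94, against -0.07). EdgeR called none of them at day 14, though 4 had an unadjusted p under 0.05 (6.81% of all genes) and DESeq2 called 1, Wt1. Summed levels of 14 endothelial markers were 183 to 1480 CPM in PNX libraries and 283 to 945 CPM in sham libraries at day 7, and 498 to 933 CPM in PNX libraries and 514 to 831 CPM in sham libraries at day 14. PNX replicate 3 had the lowest endothelial sum of its group at day 7 and the highest at day 14. Summed levels of 11 mast cell and basophil markers were 49.0 to 182 CPM in PNX libraries and 27.0 to 88.5 CPM in sham libraries at day 7, and 51.2 to 158 CPM in PNX libraries and 58.1 to 81.4 CPM in sham libraries at day 14. Here PNX replicate 3 had the highest sum of its group on both days, at 182 and 158 CPM. The 5 haemoglobin and red cell genes summed to 3742 to 24169 CPM in PNX libraries and 5008 to 17819 CPM in sham libraries at day 7, and to 254 to 79877 CPM in PNX libraries and 3033 to 23509 CPM in sham libraries at day 14. For these, PNX replicate 3 was the lowest of its group at day 7 and lay between the others at day 14. The part of any of these cell types in the Cela1 result was not tested.

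Across the 11 libraries, the log2 CPM of Cela1 ran most like those of Ildr2, Calca and Bend4, the top 3 of 12611 genes, with Pearson r of 0.963, 0.945 and 0.939. These are descriptions over libraries that share depth, sort and surgery. Ildr2, which encodes an immunoglobulin-like membrane protein, averaged 72.5 ± 33.8 CPM after PNX and 36.2 ± 16.5 CPM after sham at day 7, and 113 ± 35.6 CPM after PNX and 24.3 ± 3.45 CPM after sham at day 14. Calca encodes calcitonin and the neuropeptide CGRP. It averaged 15.1 ± 15.7 CPM after PNX and 0.167 ± 0.0416 CPM after sham at day 7, and 51.4 ± 34.7 CPM after PNX and 0.626 ± 0.540 CPM after sham at day 14. Both were called higher in the mean of both days with edgeR (Ildr2, log2 fold change 1.61, adjusted p = 0.0473; Calca, 6.52, adjusted p = 0.0277). Bend4, which encodes a BEN-domain protein, was not called (1.52, adjusted p = 0.0614). In all of them PNX day 7 replicate 3 was the highest library of its group. Among the other members tested, r with Cela1 was 0.687 for Serpinb1a, 0.0345 for Slpi and -0.105 for Prtn3.

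**Figure D3:**
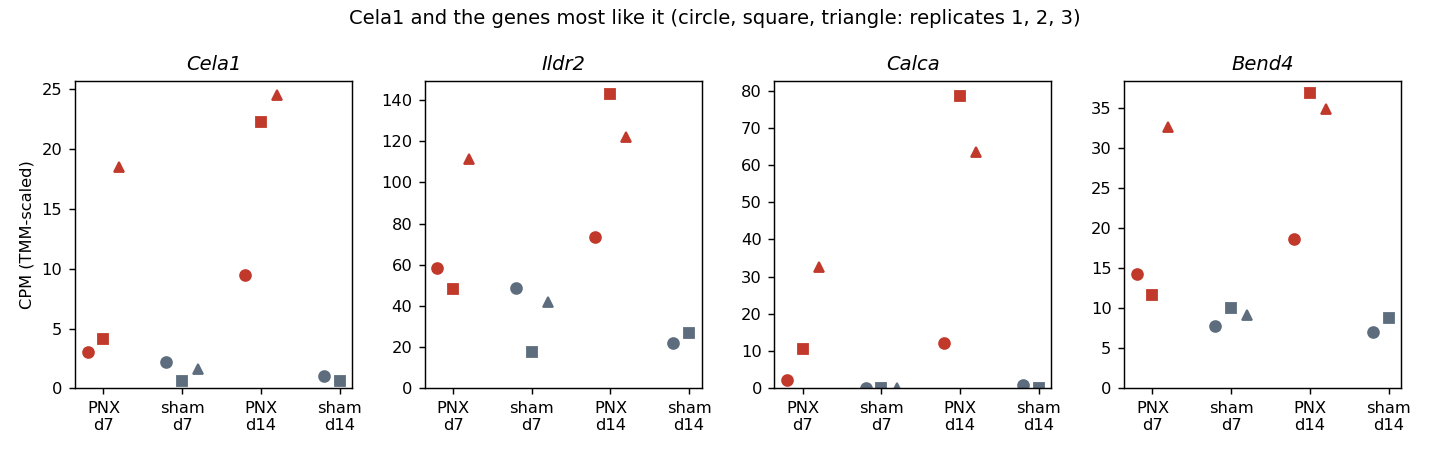
Level (y axis, CPM scaled by TMM factors) of Cela1 and of the 3 genes most like it, by surgery and day (d7 and d14), with circle, square and triangle for replicates 1, 2 and 3, PNX in red and sham in grey. In each panel PNX day 7 replicate 3 lies within the range of the 3 PNX libraries of day 14, and both sham libraries of day 14 lie below that range.

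The neutrophil elastase genes were barely detected. Prtn3 had 5, 2 and 23 counts in PNX libraries and 8, 9 and 10 counts in sham libraries at day 7, and 20, 7 and 4 counts in PNX libraries and 11 and 13 counts in sham libraries at day 14. The groups overlapped on both days. Prtn3 averaged 1.45 ± 1.31 CPM after PNX and 1.502 ± 0.407 CPM after sham at day 7, and 1.91 ± 1.58 CPM after PNX and 2.64 ± 1.49 CPM after sham at day 14. The log2 fold change was 0.011 ± 0.87 at day 7 (edgeR, adjusted p = 0.996), -0.42 ± 1.02 at day 14 (adjusted p = 0.942) and -0.21 ± 0.69 in the mean of both days (adjusted p = 0.980).

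Elane had 1, 3 and 2 counts in PNX libraries and 1, 0 and 0 counts in sham libraries at day 7. At day 14 it had 2, 0 and 0 counts in PNX libraries and 3 and 9 counts in sham libraries. At 3 counts, the upper limit a count of 0 allows, the level would be 0.644 and 0.435 CPM in sham day 7 replicates 2 and 3, and 0.471 and 0.674 CPM in PNX day 14 replicates 2 and 3. All PNX libraries lay above all sham libraries at day 7, an order that 9.95% of tested genes had. In replicate 1 of that day, PNX and sham had 1 count each and differed only by scaling. At day 14 all PNX libraries lay below both sham libraries, an order that 8.28% of tested genes had. In the PNX day 7 libraries 66.9%, 31.7% and 31.7% of olfactory and vomeronasal genes had as many counts as Elane or more. The share was 39.7% and 0.344% in sham day 14 replicates 1 and 2. It was 33.6% in PNX day 14 replicate 1, where Elane had 2 counts. The counts of Elane could thus not be told from background at day 7, nor at day 14 outside sham replicate 2, which had 9 counts. The difference in means was 0.372 CPM at day 7 (0.419 ± 0.359 after PNX, 0.0469 ± 0.0812 after sham) and -0.928 CPM at day 14 (0.124 ± 0.215 after PNX, 1.05 ± 0.0637 after sham). Each had a two-sided exact permutation p of 0.1, the smallest that either design can give. With surgery permuted within day over 200 regroupings, the mean difference of -0.278 CPM had an exact permutation p of 0.355.

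Neutrophils make both transcripts mainly as precursors, and CD45-positive cells should be gone after the sort. The summed level of 23 neutrophil and granule genes was 107 to 167 CPM in PNX libraries and 50.9 to 140 CPM in sham libraries at day 7, and 95.5 to 151 CPM in PNX libraries and 243 to 375 CPM in sham libraries at day 14. A large part of the sums was 1 gene, Chil3, with 50.8 to 111 CPM in PNX libraries and 121 and 187 CPM in sham libraries at day 14. At day 7, 12 of 16 list genes tested were higher after PNX and 4 lower (median log2 fold change 0.50, against 0.03 over all genes). EdgeR called none of these, 3 had an unadjusted p under 0.05 (12.7% of all genes), and limma voom called 1, Chil3. At day 14, 16 of 16 were lower after PNX (median log2 fold change -2.18, against -0.07 over all genes). EdgeR called none there, 9 had an unadjusted p under 0.05 (6.81% of all genes), and DESeq2 called 3. Ngp, a gene of neutrophil secondary granules, had a log2 fold change of -6.46 ± 1.22 (adjusted p = 0.0687) and S100a8, a neutrophil calcium-binding protein gene, -3.62 ± 0.75 (adjusted p = 0.0905). Mpo, the myeloperoxidase gene, held 65 counts in all, and Ctsg, the gene of cathepsin G, held 13. Macrophage and monocyte genes, 25 in all, summed to 238 to 571 CPM in PNX libraries and 145 to 815 CPM in sham libraries at day 7, and to 427 to 845 CPM in PNX libraries and 930 to 1063 CPM in sham libraries at day 14. Laptm5, which encodes a lysosomal protein of blood cells, was called lower in the mean of both days (log2 fold change -2.08 ± 0.40, edgeR adjusted p = 0.0433). By group means, Elane lay on both days in the same direction as most of the neutrophil list. Its counts could not be told from background at day 7, nor at day 14 outside sham replicate 2. The part of these cells in its levels was not tested. Cfd, which encodes complement factor D and lies 2638 bases from Elane on the same strand, also had opposite signs: its log2 fold change was 3.59 ± 0.64 at day 7 (edgeR, adjusted p = 0.0606) and -1.51 ± 0.69 at day 14 (adjusted p = 0.709), with a difference between days of -5.11 ± 0.93 (adjusted p = 0.168). Whether reads of Cfd were counted for Elane was not tested.

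**Figure D4:**
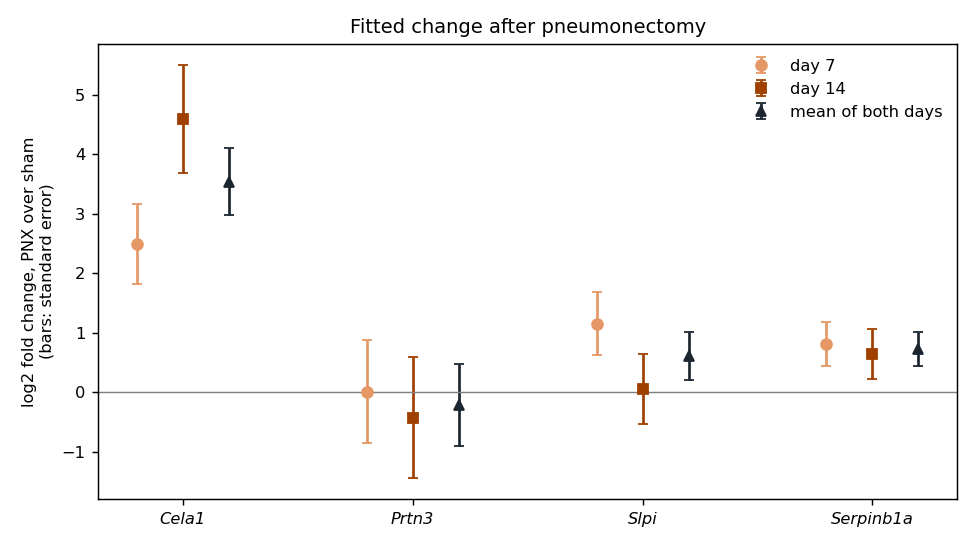
Log2 fold change of PNX over sham (y axis, bars are standard errors) for the 4 genes tested, by single day and averaged over the 2 days. Cela1 lies between 2.49 and 4.60, and the other 3 lie between -0.42 and 1.16.

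Of the inhibitors, Slpi was the more abundant and varied most between libraries of a group. At day 7 it had 262, 108 and 584 CPM in PNX libraries, against 221, 114 and 92.4 CPM in sham libraries. At day 14 it had 97.4, 45.7 and 40.5 CPM in PNX libraries, against 46.0 and 70.9 CPM in sham libraries. PNX and sham overlapped on both days, with PNX day 7 replicate 3 far above the rest. The means were 318 ± 243 CPM after PNX and 143 ± 68.8 CPM after sham at day 7, and 61.2 ± 31.5 CPM after PNX and 58.4 ± 17.6 CPM after sham at day 14. The log2 fold change was 1.16 ± 0.53 at day 7 (edgeR, adjusted p = 0.372) and 0.06 ± 0.59 at day 14 (adjusted p = 0.987). Without PNX day 7 replicate 3 the day 7 value was 0.34 (adjusted p = 0.799).

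Slpi was lower at day 14 than at day 7 under both kinds of surgery, in every library, although edgeR did not call it. After PNX the log2 fold change of day 14 over day 7 was -2.38 ± 0.55 (edgeR, adjusted p = 0.319, unadjusted p = 0.000515), and after sham it was -1.28 ± 0.61 (adjusted p = 0.358). All day 14 libraries lay below all day 7 libraries in 9.08% of genes after PNX and in 11.8% after sham. With edgeR, Slpi was the 1 member with an unadjusted p under 0.05 after PNX, where 6.85% of genes had one. No member had one with edgeR after sham, where 14.3% of genes did and 0.0187% were called higher. DESeq2 and limma voom called no member after sham, where DESeq2 called 1.97% of genes higher and 2.2% lower and limma voom none. After PNX, DESeq2 (-2.39, adjusted p = 0.00355) and limma voom (-2.04, adjusted p = 0.0340) both called it. Over all genes in that comparison, DESeq2 called 0.169% higher and 0.194% lower and limma voom 0.512% higher and 0.181% lower. Without PNX day 7 replicate 3, edgeR gave -1.59 (adjusted p = 0.647). Batches of collection or sequencing are not given in the labels. The PNX effect on Slpi did not differ between days past the threshold (-1.10 ± 0.78, adjusted p = 0.666). No member was called for that difference by edgeR, DESeq2 or limma voom, and none had an unadjusted p under 0.05 with any of them, against 8.76% of genes with edgeR. DESeq2 called 0.294% of genes higher and 0.344% lower for it, and edgeR and limma voom none.

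Airway secretory cells are a known source of Slpi. The summed level of 18 airway markers was 103 to 229 CPM in PNX libraries and 88.2 to 597 CPM in sham libraries at day 7, and 182 to 535 CPM in PNX libraries and 772 to 2141 CPM in sham libraries at day 14. The part of airway cells in the Slpi levels was not tested. The genes most like Slpi over the 11 libraries were Cfb, which encodes complement factor B (r = 0.889), Mrps2, a mitochondrial ribosomal protein gene (r = 0.888), and Fam151a (r = 0.843).

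Serpinb1a varied less between libraries than Slpi. It had 94.3, 52.3 and 89.4 CPM in PNX libraries and 64.4, 23.8 and 46.4 CPM in sham libraries at day 7, and 74.4, 101 and 60.5 CPM in PNX libraries and 46.0 and 54.2 CPM in sham libraries at day 14. The groups overlapped at day 7, and at day 14 all PNX libraries were above both sham libraries, as in 9.57% of tested genes. The means were 78.7 ± 23.0 CPM after PNX and 44.9 ± 20.3 CPM after sham at day 7, and 78.5 ± 20.5 CPM after PNX and 50.1 ± 5.75 CPM after sham at day 14. The log2 fold change was 0.81 ± 0.37 at day 7 (edgeR, adjusted p = 0.371), 0.65 ± 0.42 at day 14 (adjusted p = 0.796) and 0.73 ± 0.28 in the mean of both days (adjusted p = 0.353). It was positive in all 3 comparisons under every setting tried, with 0.58 to 0.90 in the mean of both days, and was called in none. Genes most like Serpinb1a were Prkcdbp, which encodes the caveolar protein cavin-3 (r = 0.969), Plp2 (r = 0.943) and B9d1 (r = 0.933).

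Per kilobase of exon, Slpi and Serpinb1a had higher mean levels than the 3 elastase genes. Over the 11 libraries, the mean level was 130 ± 135 CPM per kb for Slpi and 27.9 ± 10.2 CPM per kb for Serpinb1a. It was 3.47 ± 4.02 CPM per kb for Cela1, 1.04 ± 0.660 CPM per kb for Prtn3 and 0.358 ± 0.431 CPM per kb for Elane. Over all libraries the order of the means was Slpi, Serpinb1a, Cela1, Prtn3, Elane, and the means ± SD of neighbours in that order overlapped except those of Serpinb1a and Cela1. By group, Cela1 averaged 8.14 ± 3.51 CPM per kb after PNX and 0.351 ± 0.122 CPM per kb after sham at day 14, when Serpinb1a averaged 34.1 ± 8.88 CPM per kb after PNX and 21.8 ± 2.498 CPM per kb after sham. That order did not hold in either sham group. At sham day 7 Cela1 averaged 0.649 CPM per kb and Prtn3 0.867, and at sham day 14 Cela1, at 0.351, was below both Prtn3, at 1.52, and Elane, at 1.07. In both PNX groups Cela1 was above Prtn3 and Elane. With the longest transcript as length, the level of Prtn3 over all libraries was 1.76 CPM per kb and the pooled order was kept. Cela1 was then again below Prtn3 in both sham groups (1.35 and 1.47 CPM per kb at day 7, 0.730 and 2.58 at day 14) and below Elane (1.07) at sham day 14.

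**Figure D5:**
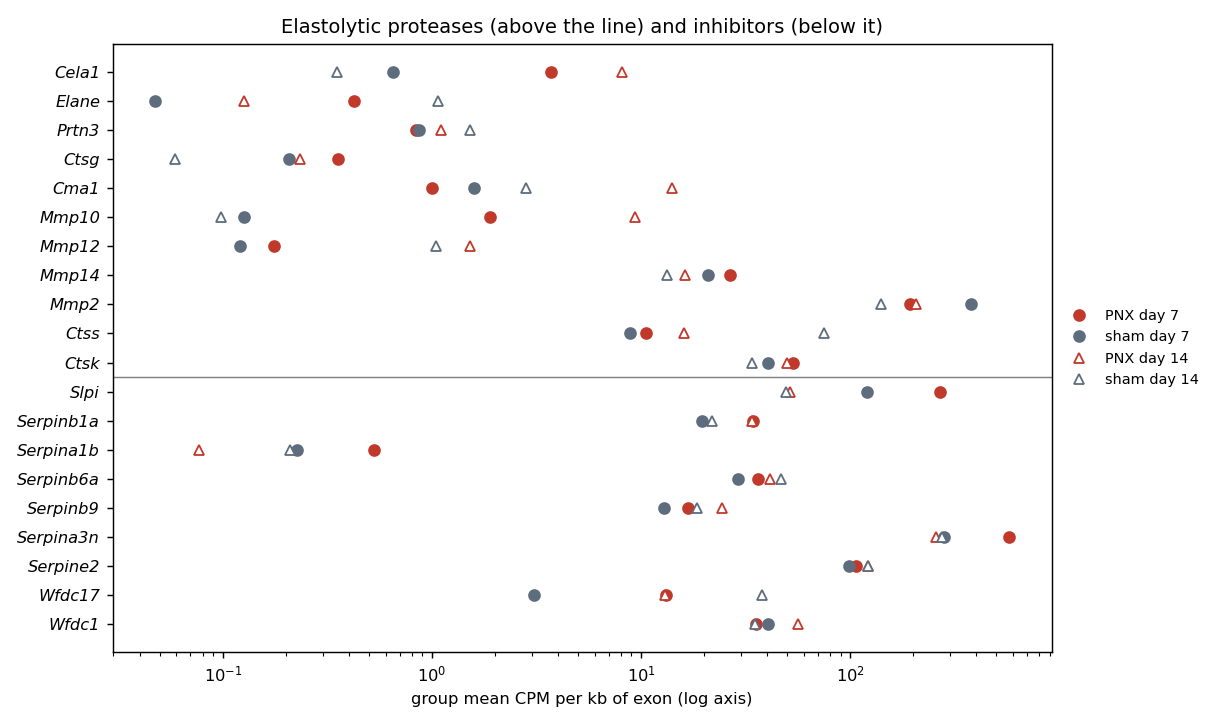
Group mean level per kilobase of exon (x axis, CPM per kb, log axis) of elastolytic proteases above the line and of inhibitors below it, with filled circles for day 7 and open triangles for day 14, PNX in red and sham in grey. Cela1 at PNX day 14 reaches 8.14 CPM per kb, and Slpi lies between 49.5 and 270 CPM per kb.

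A list of other proteases, not all of which cut elastin themselves, showed no common direction. Of 17 (matrix metalloproteinases, cathepsins, chymases, plasminogen activators and Adam17), 14 were tested. At day 7, 9 were higher and 5 lower after PNX (median log2 fold change 0.26, against 0.03 over all genes), and at day 14 again 9 were higher and 5 lower (0.41, against -0.07). In the mean of both days 7 were higher and 7 lower (0.04, against -0.04). With edgeR none was called on either day or in the mean. An unadjusted p under 0.05 was found for 3, 3 and 2, against 12.7%, 6.81% and 10.3% of all genes. DESeq2 called Ctss at day 14 and Mmp10 in the mean, and limma voom called none. Mmp10, which encodes stromelysin-2, averaged 3.27 ± 2.70 CPM after PNX and 0.217 ± 0.217 CPM after sham at day 7, and 16.1 ± 22.4 CPM after PNX and 0.168 ± 0.238 CPM after sham at day 14. Its log2 fold change in the mean of both days was 5.41 ± 1.18 (edgeR, adjusted p = 0.0893), with 41.9 CPM in PNX day 14 replicate 2 alone. Ctss, which encodes cathepsin S and is typical of macrophages, averaged 21.9 ± 8.82 CPM after PNX and 102 ± 32.9 CPM after sham at day 14 (log2 fold change -2.21 ± 0.54, adjusted p = 0.178).

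Of 30 other inhibitors, 18 were tested. After PNX, 13 were higher and 5 lower at day 7 (median log2 fold change 0.12, against 0.03 over all genes). At day 14, 6 were higher and 12 lower (-0.13, against -0.07), and in the mean of both days 10 were higher and 8 lower (0.06, against -0.04). EdgeR called none in any of these. In each, 2 had an unadjusted p under 0.05, against 12.7%, 6.81% and 10.3% of all genes. DESeq2 called Serpina3f at day 14 and limma voom called none. The 5 genes of alpha-1 antitrypsin, Serpina1a to Serpina1e, the main blood-borne inhibitor of elastases, had 10 to 42 counts each in all libraries, and none was tested. They are near-identical copies, so reads could have been split between them. Serpina3n, an acute-phase serpin gene, averaged 1187 ± 569 CPM after PNX and 584 ± 117 CPM after sham at day 7 (log2 fold change 1.02 ± 0.48, adjusted p = 0.380). Wfdc17, which encodes a small secreted relative of Slpi, averaged 6.99 ± 1.28 CPM after PNX and 1.64 ± 2.15 CPM after sham at day 7 (2.19 ± 0.98, adjusted p = 0.371).

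The substrate side was measured with 22 elastic fibre genes, all tested. After PNX 9 were higher and 13 lower at day 7 (median log2 fold change -0.26, against 0.03 over all genes). At day 14, 19 were higher and 3 lower (0.52, against -0.07). In the mean of both days 11 were higher and 11 lower (-0.03, against -0.04). EdgeR called none, and 12, 4 and 9 had an unadjusted p under 0.05, against 12.7%, 6.81% and 10.3% of all genes. At day 7 DESeq2 called 4 of them lower and limma voom called 6 lower, against 2.03% and 3.6% of all genes; at day 14 neither called any, and in the mean of both days DESeq2 called Fbn2, which encodes fibrillin-2, higher. Eln, the elastin gene itself, averaged 1127 ± 718 CPM after PNX and 851 ± 500 CPM after sham at day 7, and 987 ± 307 CPM after PNX and 356 ± 21.6 CPM after sham at day 14. Its log2 fold change at day 14 was 1.47 ± 0.63 (edgeR, adjusted p = 0.691). Ltbp4, whose product guides elastic fibre assembly, averaged 250.9 ± 25.04 CPM after PNX and 1298 ± 884 CPM after sham at day 7 (-2.37 ± 0.56, adjusted p = 0.0910).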

How the data were processed

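The authors deposited raw read counts per gene symbol, 1 column for each of 11 libraries, without pooling. Per the submitters' processing notes, mm10 was the genome build and bcl2fastq 2.20.0.422 was used. How reads were aligned, counted, annotated and filtered, and whether strand was used, is not given in the sources used here. Per the labels' protocols, a column kit for little material and a low-input library kit were used, so that amplification could add to the spread of genes with few counts.

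Groups (surgery and day) came from the labels. Members and gene lists were chosen with earlier results of these data known, and the mesothelial list was added after values had been seen. In R 4.3.3, edgeR 4.0.16 removed 8400 of 24411 symbols with filterByExpr by group and left 16011. A quasi-likelihood model, robust and with TMM factors, took 1 mean for each of 4 groups from the 11 libraries together (7 residual degrees of freedom) and gave 6 contrasts. Benjamini-Hochberg adjustment covered the 16011 genes, and 0.05 was the threshold. Adjusted p is from edgeR where no other tool is named. A standard error is the absolute log2 fold change divided by the square root of F. CPM are the counts scaled by TMM factors. Exact 95% Poisson intervals and the limit of 3 counts for a count of 0 cover counting error only. Elane did not pass the filter and was compared by exact permutation tests. Lists are described by counts and medians, with no set test. The genes named are the 5 members, list members past the threshold and otherwise at most the 4 of smallest p in a comparison, and the 3 genes of highest Pearson r with each tested member among genes of mean log2 CPM of at least 1, predicted and clone-named genes left out. Mpo, Ctsg, Serpina1a to Serpina1e, the neighbours of Cela1 and Elane and the paralogs of Serpinb1a were named for what they are.

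Alternatives were DESeq2 1.42.0, limma 3.58.1 voom with sample weights, no filter, RLE size factors or total counts in place of TMM, a filter of 1 CPM in 5 libraries, a block for the replicate number, a fit of only the groups compared, a covariate for olfactory and vomeronasal counts, a fit without the 3 libraries where these were highest, each library left out in turn, CPM of total counts for Elane and the longest transcript as length. A covariate for the presence of Y-linked counts was added after seeing the data. The fit was tested on simulated counts with planted changes. Promoter sequences are from RefSeq, GRCm38.p6, with an entry for 4 of 5 members. Gene locations and exon lengths are from GENCODE M21. Figures were drawn with matplotlib 3.10.9.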

Additional observations from a re-analysis of the deposited data

Results flagged for a closer look

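Elane ran in opposite directions on the 2 days. It was higher after PNX at day 7, by 0.372 CPM, with all 3 PNX libraries above all 3 sham libraries. That order was found in 9.95% of tested genes. Elane was lower after PNX at day 14, by a difference of -0.928 CPM, with all 3 PNX libraries below both sham libraries. An order of this kind was found in 8.28% of tested genes. These values rest on 6 counts in PNX libraries and 1 count in sham libraries at day 7, and on 2 counts in PNX libraries and 12 counts in sham libraries at day 14. The counts could not be told from background at day 7, nor at day 14 outside sham replicate 2, which held 9 of them. The difference between days was not tested in the main fit, since the gene did not pass the filter. The neutrophil list turned the same way: 12 of 16 genes tested were higher after PNX at day 7 (median log2 fold change 0.50) and 0 of 16 at day 14 (median -2.18), and 16 of 16 were negative in the difference between days (median -3.10). Cfd, the neighbour of Elane, did so too (3.59 at day 7, -1.51 at day 14). Without a filter, edgeR gave an interaction of -5.22 ± 2.38 on the log2 scale (adjusted p = 0.599).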

How the results depend on the processing

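Of the log2 fold changes recomputed under each alternative, 462 kept direction and side of the threshold, 8 newly passed it, 3 no longer passed it and 44 changed sign. The call of Cela1 in the mean of both days held in 18 of 21 alternatives, and its log2 fold change was positive in all 21. Members called at day 7 numbered 0 with edgeR and 1 with DESeq2. At day 14 they numbered 0, and 1 with DESeq2, with no filter or with only the groups compared, each time Cela1. In the mean of both days the number was 1, and 0 with limma voom. For day 14 against day 7 after PNX it was 0, and 1 with DESeq2 or limma voom, both times Slpi. Leaving out each library in turn gave 0 to 1 members at day 14 (1 without PNX day 7 replicate 3 or without sham day 7 replicate 2) and 0 to 1 in the mean of both days. Over all genes, the calls in the mean of both days were 22 higher and 9 lower with edgeR, 129 and 175 with DESeq2, 5 and 2 with limma voom, and 44 and 58 with no filter.

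Changes of sign, none of them of a called value, were as follows. For Prtn3 at day 7 the value was -0.52 with limma voom, -0.011 with no filter, -0.0091 with the filter of 1 CPM, -0.19 with the replicate block, -0.10 with the background covariate and -0.15 with the Y-linked covariate. Without the 3 libraries of highest background, Prtn3 was at 0.29 at day 14, 0.42 in the mean of both days and -0.024 for day 14 against day 7 after PNX, Slpi was at -0.19 at day 14, and Serpinb1a was at -0.083 for day 14 against day 7 after sham. Slpi at day 14 was at -0.067 with total counts and -0.16 with the replicate block. The interaction was 0.25 for Prtn3 with limma voom and 0.00070 for Serpinb1a with no filter. Serpinb1a for day 14 against day 7 after PNX was at 0.041 with no filter and 0.045 with the replicate block, against -0.0040. The cause was not tested. Total counts moved the median of all genes to 0.21 at day 7 and -0.26 at day 14.

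Leaving out each library gave ranges that cross 0 for Prtn3 at day 7 (-1.08 to 0.34), at day 14 (-1.32 to 0.26), in the mean of both days (-0.74 to 0.14), for the interaction (-1.32 to 0.68) and for day 14 against day 7 after PNX (-0.57 to 1.40). The same held for Slpi at day 14 (-0.43 to 0.55) and for Serpinb1a in the interaction (-0.51 to 0.22) and for day 14 against day 7 after PNX (-0.24 to 0.16) and after sham (-0.21 to 0.51).

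Same-numbered PNX and sham libraries of one day had correlations of deviations of -0.12, 0.53 and 0.34 for replicates 1, 2 and 3 at day 7, and 0.10 and 0.18 for replicates 1 and 2 at day 14. Since not every one was over 0.1, and pairs across days ran down to -0.59, the numbers were not taken to pair the libraries. With the replicate block, Cela1 in the mean of both days was at 3.17 ± 0.55 (adjusted p = 0.0266), and no call of a member changed. Without the 3 libraries of highest background it was at 3.70 ± 0.73 (adjusted p = 0.0421), with 1 sham library of day 14 left, assumed to vary like the other groups. Elane, Prtn3 and the sham levels of Cela1 rest on few reads. Fits of only the groups compared gave no value for some members that then failed the filter.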
